A study of Mus musculus with 15 samples.

Results

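The genes described here are 51 regulators of pre-mRNA splicing and other RNA-binding proteins of the mouse: the TRA2, SR, SRRM, NOVA, RBFOX, CELF, ELAVL, PTBP, MBNL, ESRP, hnRNP, STAR and RBMS families and the CLK kinases. They were listed by name and chosen by function, after the signals of Tra2a and Rbms3 in the Pdx1-deficient and beta arrays had been seen to differ, so the list was partly selected on those measured values. Each gene was read from the transcript clusters annotated to it alone, taking the cluster with the highest mean over all arrays. This gave values for 49 of the 51 genes, out of 19938 genes on the array. The 5 clusters of Hnrnpa1 are shared with other genes, and Srsf7 had no cluster of its own in the annotation used, so both are not analysed here.

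RNA of pancreatic islet cells had been hybridised to 15 Affymetrix Mouse Gene 1.0 ST arrays, 5 for each of 3 groups, from mice on a mixed B6 and BALB/C background. The Pdx1-deficient cells, labelled as reprogrammed cells and PKO, were taken 5 days after tamoxifen, which switches on the recombination that removes Pdx1, the homeodomain transcription factor of beta cells. The control alpha cells, labelled RIP-CreER; Pdx1fl/+, RosaYFP, and the control beta cells, labelled glucagon-Cre; RosaYFP, were sorted for the YFP reporter from mice 2 months old. These drivers are the reverse of the cells in which the insulin and glucagon promoters are usually active, and each array was assigned by its title. The alleles and Cre driver of the Pdx1-deficient cells, how they were sorted, which part of Pdx1 was removed, whether the controls received tamoxifen and whether the arrays of a group came from separate animals could not be read from the labels, so a p-value here covers the spread among the arrays alone, and that spread may be technical. Because whole cell populations were measured, fewer cells of a type and less RNA per cell cannot be told apart.

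Most genes with several exons give more than one mRNA, and the choice of exons is set by proteins that bind short sequences in the pre-mRNA. SR and TRA2 proteins mainly promote the use of the exons they bind, hnRNP and PTBP proteins often repress it, and the NOVA, RBFOX, CELF, MBNL and ESRP proteins act either way depending on where they bind. Several of these regulators were first studied in neurons, and endocrine cells of the islet share part of the neuronal splicing programme with them, whereas the ESRP proteins are characteristic of epithelia. These arrays report the summed signal of a gene's probes, on a log2 scale if the base of the deposited logarithm is 2, and do not report which exons were joined. Signals of different genes come from different probes and are not compared with each other.

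The promoters of 3 genes that are taken up first below, Tra2a, Rbms3 and Elavl2, are shown because their signals were higher than in beta cells in both other groups of arrays. Each window of 300 bases spans a transcription start of the RefSeq annotation of GRCm38.p6, most of it upstream, and is written 5′ to 3′ on the strand of the gene, with capitals marking matches to the motifs named after the sequences. Rbms3 has a pair of annotated windows, and for Elavl2 the first of 6 is shown. The positions are chr6:49264003-49264302 (minus strand) for Tra2a, chr9:117629864-117630163 and chr9:117252434-117252733 (minus strand) for Rbms3 windows 1 and 2, and chr4:91399935-91400234 (minus strand) for Elavl2.
Tra2a: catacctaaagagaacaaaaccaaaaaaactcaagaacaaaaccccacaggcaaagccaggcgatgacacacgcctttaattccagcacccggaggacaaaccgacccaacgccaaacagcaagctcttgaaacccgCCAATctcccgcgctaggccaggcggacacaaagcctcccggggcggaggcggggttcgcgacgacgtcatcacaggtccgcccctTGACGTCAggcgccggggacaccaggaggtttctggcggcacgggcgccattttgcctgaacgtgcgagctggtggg
Rbms3 window 1: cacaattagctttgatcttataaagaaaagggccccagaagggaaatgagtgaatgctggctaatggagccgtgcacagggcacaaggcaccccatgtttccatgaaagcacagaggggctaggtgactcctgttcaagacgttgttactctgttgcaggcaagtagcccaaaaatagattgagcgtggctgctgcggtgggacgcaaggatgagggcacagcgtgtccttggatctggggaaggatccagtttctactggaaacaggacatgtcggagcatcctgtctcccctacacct
Rbms3 window 2: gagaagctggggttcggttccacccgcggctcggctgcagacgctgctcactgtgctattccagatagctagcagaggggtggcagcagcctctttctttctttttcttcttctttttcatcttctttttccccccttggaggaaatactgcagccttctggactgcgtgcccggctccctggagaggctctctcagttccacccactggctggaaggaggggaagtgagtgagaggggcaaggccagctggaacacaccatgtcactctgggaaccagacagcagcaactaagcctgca
Elavl2 window 1: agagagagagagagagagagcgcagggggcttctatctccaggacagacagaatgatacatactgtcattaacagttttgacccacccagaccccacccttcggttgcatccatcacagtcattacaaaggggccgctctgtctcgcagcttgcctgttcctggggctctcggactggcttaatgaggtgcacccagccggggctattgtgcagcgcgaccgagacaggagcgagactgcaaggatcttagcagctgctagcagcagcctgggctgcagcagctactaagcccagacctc
The windows were searched on both strands for TAATTA, the core bound by homeodomain proteins such as Pdx1, for the cyclic AMP response element TGACGTCA and for the CCAAT box (ATTGG on the other strand). The motifs were chosen with the sequences in view. The Tra2a window held 1 match to TGACGTCA and 1 to CCAAT and no TAATTA, and neither Rbms3 window nor the first Elavl2 window held any of them. The other 5 Elavl2 windows, which are not shown, held 2 matches to CCAAT each and neither other motif. Of all 32851 windows in the table, 5.29% held TAATTA, 1.79% TGACGTCA and 37.4% CCAAT. Of the 77 windows of the 41 listed genes with an entry, 3.9% held TAATTA, 7.79% TGACGTCA and 42.9% CCAAT. A match describes letters in the window and is not evidence of binding.

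Pdx1 itself read 9.12, 7.83, 7.68, 6.53 and 7.59 in the Pdx1-deficient arrays, 8.15, 7.98, 8.21, 7.70 and 7.27 in alpha arrays, and 8.85, 9.33, 9.26, 9.02 and 9.26 in beta arrays. The array labelled Pdx1-deficient replicate 1 thus lay inside the beta range, against its label, and its beta-cell genes Ucn3 (10.88) and Slc2a2 (10.46) were also at beta levels. Alpha replicate 2 was low for the alpha-cell gene Ndst4 (6.50, where the other 4 read 8.27 to 8.79). Alpha replicate 5 had a mean acinar marker signal of 12.16, and the other 4 alpha arrays 6.05 to 7.64. Over the marker lists, the mean signal of 9 alpha-cell genes was 8.38 to 8.72 in Pdx1-deficient, 8.47 to 9.81 in alpha and 7.84 to 8.19 in beta arrays, and that of 10 beta-cell genes was 9.10 to 10.50 in Pdx1-deficient, 8.94 to 9.61 in alpha and 10.30 to 10.58 in beta arrays. Pdx1-deficient replicate 1 had the highest mean of its group for both lists, 8.72 and 10.50. It thus lay above the beta range for the alpha-cell genes and inside it for the beta-cell genes. Array medians ran from 5.88 to 6.05 and pairwise correlations over all clusters from 0.907 to 0.979. Counts of members past the threshold or with groups that did not overlap, and their medians, are given below with and without these 3 arrays. The values of single genes include all 15 arrays unless another set is named.

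Between Pdx1-deficient and beta arrays, 2 of the 49 genes, Tra2a and Rbms3, passed an adjusted p of 0.05 upward and none passed downward. Over all 19938 genes, 1.09% passed in either direction, 0.16% upward and 0.928% downward. This comparison had been used to choose the list, so the counts are a description from which nothing is read, and no p is given for single members. Without Pdx1-deficient replicate 1 and alpha replicate 2, Tra2a and Rbms3 passed upward and Esrp1 downward, against 626 of all genes. Without alpha replicate 5 Tra2a and Rbms3 passed. Leaving out any 1 array gave 0 to 548 of all genes, a range over all such settings and not the count for this one. Tra2a passed in 11 and Rbms3 in 13 of the 25 alternatives. No member passed without any 1 of beta replicates 1, 3, 4 and 5 or Pdx1-deficient replicates 2, 4 and 5, without beta replicates 1 and 5 together, on quantile normalization, with the replicate block or with array weights. In 4 of the 49 genes the 5 Pdx1-deficient and 5 beta arrays did not overlap: Tra2a, Rbms3 and Rbfox1 were higher in every Pdx1-deficient array and Esrp1 was lower in every one. Over all genes this held for 5.96%, 2.77% upward and 3.18% downward. The median difference of the 49 genes was 0.07 on the log2 scale, with 31 of them (63.3%) above 0, and that of all genes was 0.06, with 60.8% above 0. Without Pdx1-deficient replicate 1 the arrays did not overlap for 7 members, 6 higher and 1 lower, against 9.84% of all genes, and the median was 0.11 with 34 of 49 above 0 (69.4%), against 0.07 and 61.5% over all genes.

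Between alpha and beta arrays, Rbms3, Elavl2, Tra2a and Clk1 rose in alpha cells and no member fell (limma, Benjamini-Hochberg adjustment over all genes). Over all genes 4.04% passed in either direction, 0.893% upward and 3.15% downward. With each array's median subtracted, Rbms3, Elavl2 and Tra2a stayed past the threshold upward. Esrp1 (-0.85, SE 0.22, limma adjusted p = 0.0373) and Hnrnpl (-0.61, SE 0.16, adjusted p = 0.0412) passed downward. Clk1 did not pass (0.41, SE 0.12, adjusted p = 0.062). The count of all genes under that scaling is not set beside these calls, so nothing is read from their number. Under that scaling the share of upward calls among all called genes was 10.4%, where it was 22.1% for the values as deposited. Arrays did not overlap for 8 members (16.3%), where this held for 6.34% of all genes, 2.29% upward and 4.05% downward: Tra2a, Rbms3, Rbfox1, Elavl2, Mbnl2, Hnrnph1 and Clk1 were higher in every alpha array and Esrp1 was lower in every one. Before adjustment, 14 members were higher and 3 lower at a p under 0.05, against 20.7% of all genes in either direction. The median difference of the 49 genes was 0.15, and 38 of them (77.6%) had a difference above 0, against a median of 0.04 and 58.2% over all genes. These shares depend on how the arrays are scaled. With each array's median subtracted, 29 of the 49 genes (59.2%) were above 0, against 39.4% of all genes. The medians were then 0.06 for the members and -0.04 for all genes. On quantile normalization 37 members (75.5%) were above 0, against 43.2% of all genes, with medians of 0.17 and -0.03. The mean signal of the 49 genes was 8.32 and 8.26 in beta replicates 1 and 5 and 8.45 to 8.47 in beta replicates 2 to 4. In alpha arrays it was 8.46 to 8.60. The beta means behind the member median and share thus include replicates 1 and 5, where the members read lowest. This comparison shares its 5 beta arrays with the one used to choose the list. Without Pdx1-deficient replicate 1 and alpha replicate 2 there were 6 members past the threshold, the same 4 upward and Esrp1 and Hnrnpl downward, against 1425 of all genes. Without alpha replicate 5 Rbms3 and Elavl2 passed and Tra2a and Clk1 did not. Leaving out any 1 array gave 328 to 1430 of all genes, a range over all such settings and not the count for this one. The arrays did not overlap for 10 members in both cases: 8 were higher and 2 lower without alpha replicate 2, against 13.3% of all genes, and 9 were higher and 1 lower without alpha replicate 5, against 7.75%. The member medians were then 0.13, with 39 of 49 above 0, and 0.16, with 40 of 49. Without beta replicates 1 and 5, a setting chosen after seeing the data, 2 members passed, Rbms3 upward and Ptbp3 downward, against 179 of all genes.

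**Figure D1:**
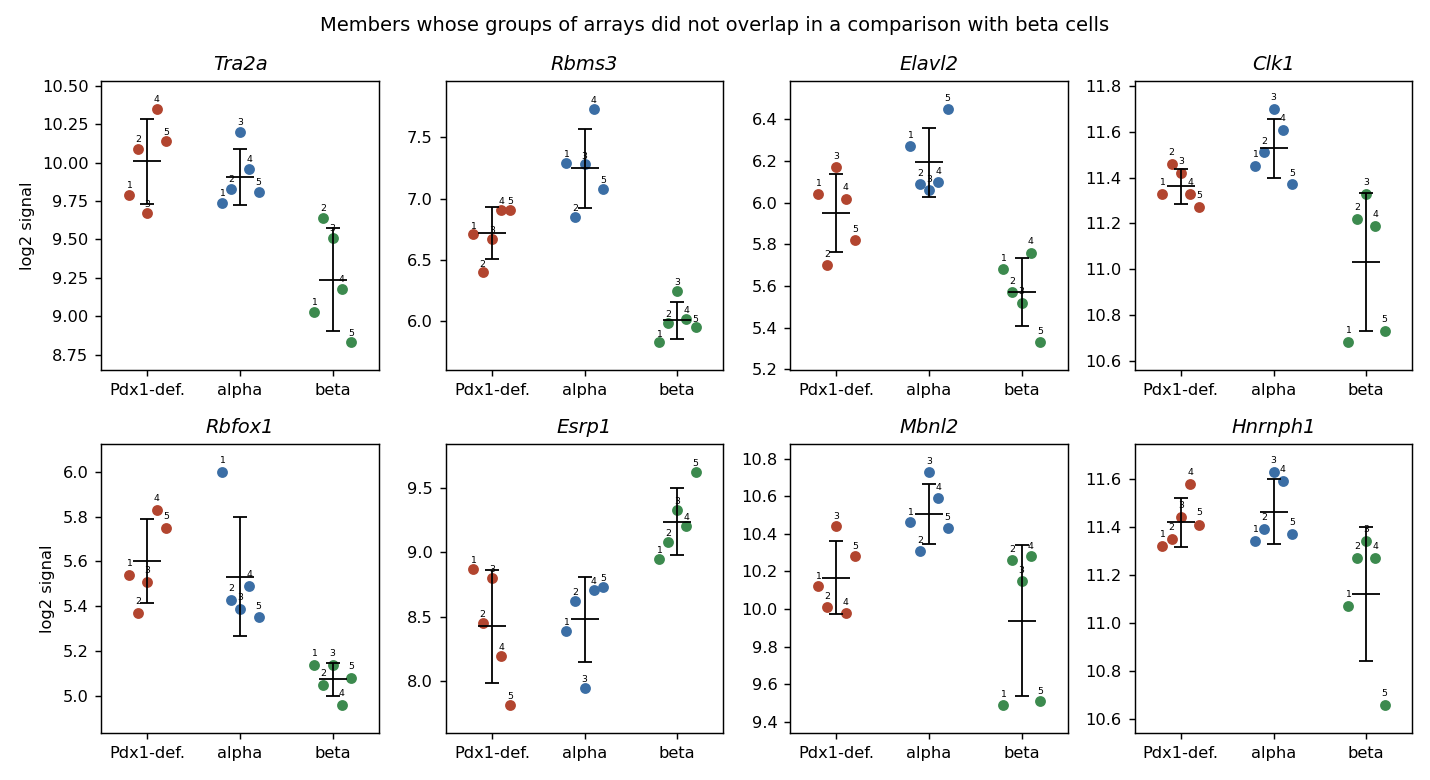
log2 signal (vertical axes, a scale of its own for each gene) of 8 genes in the 5 Pdx1-deficient, 5 alpha and 5 beta arrays. Points are single arrays with their replicate numbers, and bars show the mean ± SD. Every alpha array lies above every beta array in 7 of these genes, and below every beta array for Esrp1.

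Tra2a, a Transformer 2 protein that binds purine-rich exonic enhancers and promotes exon inclusion, read 9.79, 10.09, 9.67, 10.35 and 10.14 in Pdx1-deficient arrays, 9.74, 9.83, 10.20, 9.96 and 9.81 in alpha arrays, and 9.03, 9.64, 9.51, 9.18 and 8.83 in beta arrays. All 10 arrays of the other groups thus lay above the highest beta array, the nearest pair being Pdx1-deficient replicate 3 and beta replicate 2. The Pdx1-deficient mean of 10.01 ± 0.28 exceeded the beta mean of 9.24 ± 0.33 (SD, n = 5 each) by 0.77 (SE 0.16), a ratio of 1.70. The alpha mean of 9.91 ± 0.18 (SD, n = 5) exceeded the beta mean by 0.67 (SE 0.16), with an adjusted p of 0.0353 in limma. Pdx1-deficient replicate 1, the array with beta-like Pdx1, had a Tra2a signal above the beta range. The alpha against beta call was lost in 10 of 25 alternatives, with an adjusted p of up to 0.194 without beta replicates 1 and 5. It was lost without any 1 of beta replicates 1, 4 and 5 or alpha replicates 1, 3, 4 and 5.

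Tra2a has further clusters of its own on the array. One of them averaged 8.44 in Pdx1-deficient, 8.26 in alpha and 7.68 in beta arrays, differences from beta of 0.76 and 0.57. Its arrays overlapped, with 7.99 to 9.05 in Pdx1-deficient, 7.49 to 8.88 in alpha and 6.99 to 8.28 in beta arrays. Another averaged 7.40, 7.34 and 7.25 in the same groups, differences of 0.15 and 0.09. The size of the Tra2a difference and the separation of its arrays therefore depended on which probes were read. With the mean over its clusters the alpha minus beta difference was 0.44 (SE 0.12) and did not pass (limma adjusted p = 0.058). Its paralogue Tra2b, which binds the same kind of enhancer, averaged 10.90 ± 0.26 in Pdx1-deficient, 10.88 ± 0.27 in alpha and 10.73 ± 0.18 in beta arrays (SD, n = 5 each). The Tra2b groups overlapped, and the alpha against beta difference of 0.15 (SE 0.14) did not pass (limma adjusted p = 0.569).

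Rbms3, of a family that binds AU-rich single-stranded RNA and DNA, read 6.71, 6.40, 6.67, 6.91 and 6.91 in Pdx1-deficient arrays, 7.29, 6.85, 7.28, 7.73 and 7.08 in alpha arrays, and 5.83, 5.99, 6.25, 6.02 and 5.95 in beta arrays. Its means stood in the order alpha (7.24 ± 0.33), Pdx1-deficient (6.72 ± 0.21) and beta (6.01 ± 0.15; SD, n = 5 each), with no beta array reaching either other group. The alpha cells exceeded beta cells by 1.23 (SE 0.15), a 2.35-fold difference with an adjusted p of 0.00142 in limma, which passed in all 25 alternatives run (0.000141 to 0.0152). The Pdx1-deficient minus beta difference was 0.71 (SE 0.15). Pdx1-deficient cells were 0.52 below alpha cells (SE 0.15), which did not pass over all genes (limma adjusted p = 0.39), and Pdx1-deficient replicates 4 and 5 lay above alpha replicate 2.

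Stromal markers were higher in part of the alpha arrays than in beta arrays. The mean signal of 5 stromal genes was 5.94 to 6.20 in Pdx1-deficient arrays, 5.70 to 6.73 in alpha arrays and 5.62 to 5.94 in beta arrays. Between alpha and beta cells 1 of the 5 passed the threshold upward (20.0%, against 4.04% of all genes in either direction). The arrays of 1 of the 5 did not overlap (20.0%, against 6.34% of all genes), and this was not Sparc, whose arrays overlapped. The matrix protein gene Sparc had the largest alpha minus beta difference of the 5, 1.2, where their median was 0.19. Sparc read 7.65, 5.63, 8.38, 7.42 and 7.02 in alpha arrays, against 6.31, 6.04, 5.48, 5.91 and 6.36 in beta arrays. Alpha replicate 2 had the stromal mean of 5.70 and the lowest Rbms3 signal of the alpha arrays, 6.85, where the highest beta array read 6.25. Alpha replicate 4 had the highest Rbms3 signal, 7.73, with a stromal mean of 6.20. Alpha replicate 3 had the highest stromal mean, 6.73, with Rbms3 at 7.28. The part of stromal cells in the Rbms3 difference was not tested. Without the acinar-rich alpha replicate 5 the Rbms3 difference was 1.28 (SE 0.16, limma adjusted p = 0.00276). Rbms1 averaged 6.37 ± 0.27 in Pdx1-deficient, 6.19 ± 0.14 in alpha and 6.07 ± 0.14 in beta arrays, and Rbms2 averaged 6.37 ± 0.21, 6.46 ± 0.31 and 6.46 ± 0.08 in the same groups (SD, n = 5 each). Neither passed between alpha and beta cells (limma adjusted p = 0.58 and 0.997).

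Among the ELAVL proteins, which bind AU-rich elements and stabilise the mRNAs that carry them, Elavl2, a member otherwise best known from neurons, read 6.04, 5.70, 6.17, 6.02 and 5.82 in Pdx1-deficient arrays, 6.27, 6.09, 6.06, 6.10 and 6.45 in alpha arrays, and 5.68, 5.57, 5.52, 5.76 and 5.33 in beta arrays. The alpha and beta arrays did not overlap, and the alpha mean was higher by 0.62 (SE 0.11), a 1.54-fold difference (limma adjusted p = 0.00873). Of the 24 alternatives that kept Elavl2, it passed in 23 and missed without beta replicates 1 and 5 (0.57, SE 0.13, adjusted p = 0.0515). The Pdx1-deficient minus beta difference was 0.38 (SE 0.11), with Pdx1-deficient replicate 2 inside the beta range. Pdx1-deficient cells were 0.24 below alpha cells (SE 0.11, limma adjusted p = 0.814).

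The neuronal Elavl4 did not follow that pattern and read 7.67, 7.69, 7.95, 7.13 and 7.66 in Pdx1-deficient arrays, 7.71, 8.14, 7.46, 7.66 and 7.03 in alpha arrays, and 6.96, 7.95, 8.07, 8.21 and 6.61 in beta arrays. Its group means of 7.62, 7.60 and 7.56 lay within the spread of the arrays, and the beta arrays alone spanned 1.61 (limma adjusted p = 0.947 for alpha against beta). Elavl3 averaged 6.15 ± 0.15 in Pdx1-deficient, 6.01 ± 0.21 in alpha and 5.94 ± 0.09 in beta arrays. Elavl1, the widely expressed member known as HuR, averaged 8.90 ± 0.29, 8.98 ± 0.29 and 9.04 ± 0.23 in the same groups (SD, n = 5 each). The mean signal of 4 neuron and Schwann cell genes was 7.26 to 7.57 in Pdx1-deficient, 6.60 to 7.45 in alpha and 7.10 to 7.48 in beta arrays. None of the 4 passed between alpha and beta cells, their differences ran from -0.94 to 0.33, and 2 of the 4 were above 0. Their part in the Elavl2 difference was not tested.

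Clk1, a nuclear kinase that phosphorylates SR proteins and so changes where they act, read 11.33, 11.46, 11.42, 11.33 and 11.27 in Pdx1-deficient arrays, 11.45, 11.51, 11.70, 11.61 and 11.37 in alpha arrays, and 10.68, 11.22, 11.33, 11.19 and 10.73 in beta arrays. The alpha mean of 11.53 ± 0.13 exceeded the beta mean of 11.03 ± 0.30 (SD, n = 5 each) by 0.50 (SE 0.12), a 1.41-fold difference (limma adjusted p = 0.0371). Beta replicates 1 and 5 were the low ones: without them the difference was 0.28 (SE 0.09, limma adjusted p = 0.165), and the call held in 14 of 25 alternatives. Like that of Tra2a, it was lost without any 1 of beta replicates 1, 4 and 5 or alpha replicates 1, 3, 4 and 5. The Pdx1-deficient minus beta difference was 0.33 (SE 0.12), with overlapping arrays. Clk4, a kinase of the same family, averaged 9.94 ± 0.25 in Pdx1-deficient, 9.90 ± 0.26 in alpha and 9.72 ± 0.53 in beta arrays (SD, n = 5 each), and did not pass between alpha and beta cells (limma adjusted p = 0.652).

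Rbfox1, a regulator of neuronal and muscle exons that binds GCAUG, read 5.54, 5.37, 5.51, 5.83 and 5.75 in Pdx1-deficient arrays, 6.0, 5.43, 5.39, 5.49 and 5.35 in alpha arrays, and 5.14, 5.05, 5.14, 4.96 and 5.08 in beta arrays. Every array of the other groups lay above every beta array, although all 15 Rbfox1 signals were under the median of their array. The Pdx1-deficient minus beta difference was 0.53 (SE 0.12). The alpha minus beta difference of 0.46 (SE 0.12) narrowly missed the threshold (limma adjusted p = 0.0509) and passed in 4 of 24 alternatives. The 3 RBFOX genes differed in this: Rbfox2 averaged 7.71, 7.66 and 7.66 in Pdx1-deficient, alpha and beta arrays, and Rbfox3 averaged 5.34, 5.54 and 5.38.

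Esrp1, which promotes the epithelial isoforms of its target genes, was the only member whose arrays lay wholly below those of beta cells. It read 8.87, 8.45, 8.80, 8.19 and 7.81 in Pdx1-deficient arrays, 8.39, 8.62, 7.94, 8.71 and 8.73 in alpha arrays, and 8.95, 9.08, 9.33, 9.21 and 9.63 in beta arrays. The Pdx1-deficient replicate 1 was the one nearest to the beta range, and replicate 5 the farthest. The Pdx1-deficient minus beta difference was -0.81 (SE 0.21), and -0.92 (SE 0.21) without replicate 1. The alpha minus beta difference of -0.76 (SE 0.21) missed the threshold (limma adjusted p = 0.0509) and passed in 8 of 25 alternatives. Esrp2, its paralogue, averaged 5.94 ± 0.09 in Pdx1-deficient, 6.01 ± 0.18 in alpha and 6.15 ± 0.21 in beta arrays (SD, n = 5 each), with overlapping groups.

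The other genes whose alpha and beta arrays did not overlap were Mbnl2 and Hnrnph1. Mbnl2, a Muscleblind protein of the kind sequestered in myotonic dystrophy, read 10.12, 10.01, 10.44, 9.98 and 10.28 in Pdx1-deficient arrays, 10.46, 10.31, 10.73, 10.59 and 10.43 in alpha arrays, and 9.49, 10.26, 10.15, 10.28 and 9.51 in beta arrays. Its alpha minus beta difference was 0.57 (SE 0.16, limma adjusted p = 0.0655), and 0.27 (SE 0.12, adjusted p = 0.296) without beta replicates 1 and 5. Hnrnph1, which binds G-rich sequences next to splice sites, read 11.32, 11.35, 11.44, 11.58 and 11.41 in Pdx1-deficient arrays, 11.34, 11.39, 11.63, 11.59 and 11.37 in alpha arrays, and 11.07, 11.27, 11.34, 11.27 and 10.66 in beta arrays. The gap between the groups was nil to 2 decimals, since the lowest alpha and the highest beta array both read 11.34, and the difference of 0.34 (SE 0.12) did not pass (limma adjusted p = 0.122).

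Other regulators known for neuronal splicing gave no call. Nova1 read 8.50, 8.12, 8.13, 9.62 and 6.91 in Pdx1-deficient arrays, 7.60, 8.48, 8.0, 8.06 and 8.32 in alpha arrays, and 6.29, 8.0, 6.97, 8.0 and 6.41 in beta arrays. Its mean differences from beta cells were large, 1.12 (SE 0.44) in Pdx1-deficient and 0.96 (SE 0.44, limma adjusted p = 0.227) in alpha cells, but single groups spanned up to 2.71 and overlapped. A further Nova1 cluster gave differences of 0.10 and 0.11. Nova2 averaged 6.56 ± 0.06, 6.58 ± 0.10 and 6.38 ± 0.12 in Pdx1-deficient, alpha and beta arrays (SD, n = 5 each). Srrm4, which drives inclusion of neuronal microexons, read 5.93, 5.73, 5.64, 5.69 and 5.74 in Pdx1-deficient arrays, 6.11, 5.78, 5.84, 5.69 and 5.67 in alpha arrays, and 5.78, 5.63, 6.42, 5.90 and 5.97 in beta arrays. The Srrm4 groups overlapped throughout, and the alpha minus beta difference was -0.12 (SE 0.13, limma adjusted p = 0.604).

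The polypyrimidine tract binding proteins divide by tissue: Ptbp1 represses neuronal exons in most cells, and Ptbp2 replaces it in neurons. Ptbp1 read 8.51, 8.95, 8.83, 8.31 and 9.09 in Pdx1-deficient arrays, 8.67, 8.74, 9.25, 9.15 and 8.96 in alpha arrays, and 9.16, 8.52, 8.60, 8.64 and 8.93 in beta arrays, with overlapping groups. A further Ptbp1 cluster had the opposite sign between alpha and beta arrays (-0.27, against 0.18 for the cluster used). Ptbp2 averaged 8.98 ± 0.36 in Pdx1-deficient, 8.57 ± 0.44 in alpha and 8.21 ± 0.39 in beta arrays (SD, n = 5 each). Its Pdx1-deficient minus beta difference of 0.77 (SE 0.23) was as large as that of Tra2a but with overlapping arrays, and its alpha minus beta difference of 0.36 did not pass (SE 0.23, limma adjusted p = 0.389). Ptbp3 averaged 9.84 ± 0.08 in Pdx1-deficient, 9.72 ± 0.22 in alpha and 10.10 ± 0.48 in beta arrays (SD, n = 5 each), and its difference of -0.38 between alpha and beta cells (SE 0.18, limma adjusted p = 0.243) became -0.72 (SE 0.12, adjusted p = 0.0271) without beta replicates 1 and 5.

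Among the CELF proteins, which bind GU-rich sequences, none of the 6 passed. The brain-enriched Celf4 read 6.79, 6.93, 7.03, 7.27 and 6.92 in Pdx1-deficient arrays, 6.98, 7.04, 6.91, 6.88 and 6.93 in alpha arrays, and 6.43, 6.95, 7.04, 7.03 and 6.73 in beta arrays. The alpha arrays of Celf4 lay close together (SD 0.06). Replicate 2 was above the highest beta array by less than 2 decimals show (both 7.04), and the others were inside the beta range. The alpha minus beta difference was 0.12 (SE 0.12, limma adjusted p = 0.594). The alpha minus beta differences of the 6 genes ran from -0.05 to 0.20, and the Pdx1-deficient minus beta differences from -0.02 to 0.19.

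The SR proteins, the general activators of exon definition, were measured for 9 of 10 genes and none passed in any comparison. Between alpha and beta cells their differences ran from -0.43 (Srsf9, SE 0.15, limma adjusted p = 0.119) to 0.31 (Srsf10, SE 0.12, adjusted p = 0.151), with a median of 0.23, and 6 of 9 were above 0. Srsf3 averaged 11.83 ± 0.08 in Pdx1-deficient, 11.94 ± 0.12 in alpha and 11.71 ± 0.07 in beta arrays (SD, n = 5 each), a small alpha minus beta difference of 0.23 against an SE of 0.07 (limma adjusted p = 0.0956). Srsf1, Srsf6 and Srsf11 had alpha minus beta differences of 0.28, 0.25 and 0.30 (limma adjusted p = 0.21, 0.145 and 0.169). Srsf2, Srsf4 and Srsf5 differed by 0.16, -0.23 and -0.05. Srrm2, a scaffold of nuclear speckles, averaged 10.44 in Pdx1-deficient, 10.44 in alpha and 10.28 in beta arrays.

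**Figure D2:**
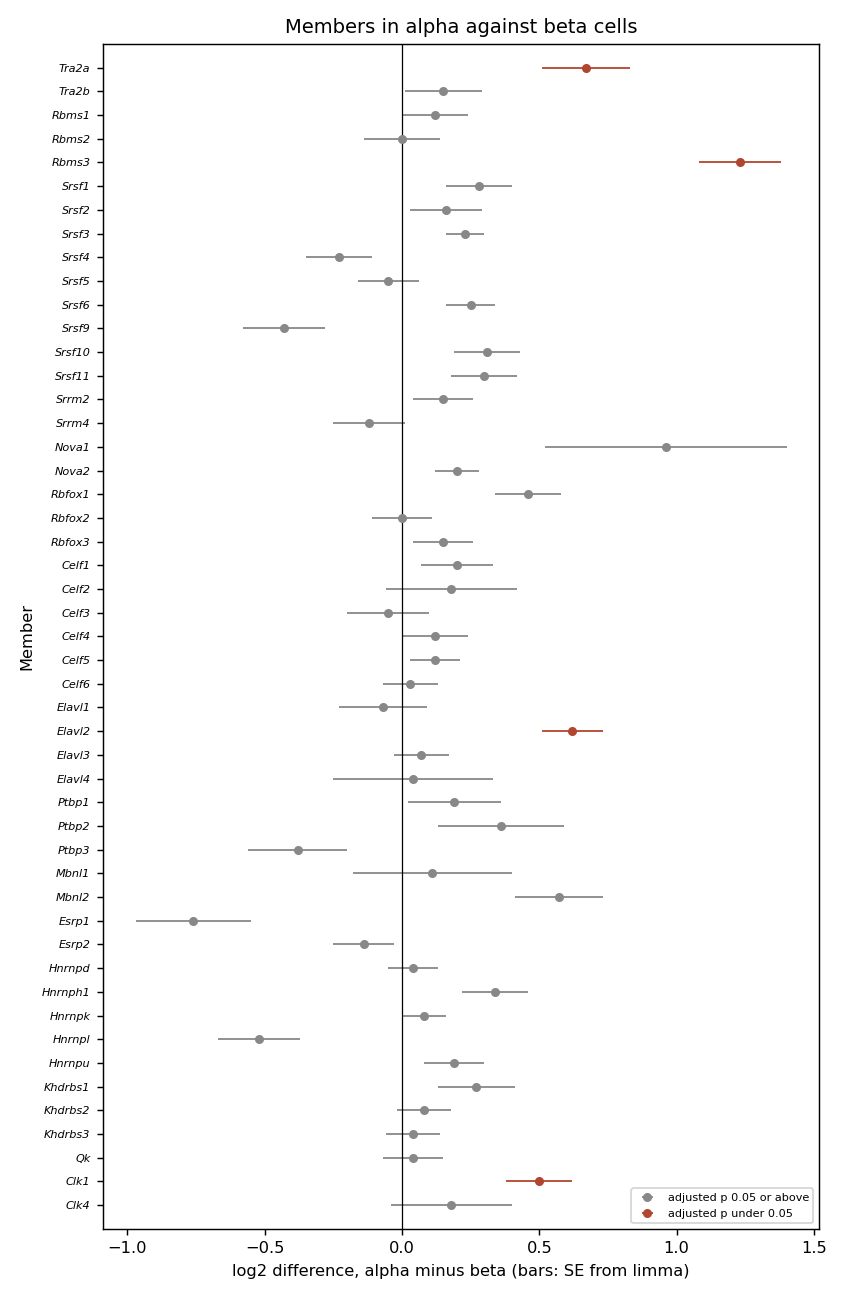
Difference in log2 signal between alpha and beta arrays (horizontal axis) for the 49 genes (vertical axis), with the standard error from limma as bars. The 4 genes past an adjusted p of 0.05 (Tra2a, Rbms3, Elavl2 and Clk1) lie between 0.50 and 1.23, and Nova1 has the widest bar (SE 0.44).

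The hnRNP proteins bind nascent RNA and repress or activate exons. Hnrnpl, which binds CA-rich sequences, averaged 8.59 ± 0.26 in Pdx1-deficient, 8.35 ± 0.28 in alpha and 8.87 ± 0.20 in beta arrays (SD, n = 5 each). Its alpha minus beta difference was -0.52 (SE 0.15, limma adjusted p = 0.0653), and -0.61 (SE 0.15, adjusted p = 0.0251) without alpha replicate 2. Hnrnpd, Hnrnpk and Hnrnpu had alpha minus beta differences of 0.04, 0.08 and 0.19 and did not pass. The STAR proteins Khdrbs1 (Sam68), Khdrbs2, Khdrbs3 and Qk (Quaking) had differences of 0.27, 0.08, 0.04 and 0.04, and none passed. Khdrbs2 was the only member whose signal was under the 25th percentile of its array in all 15 arrays. Mbnl1 averaged 9.16 ± 0.54 in Pdx1-deficient, 9.38 ± 0.22 in alpha and 9.27 ± 0.64 in beta arrays (SD, n = 5 each).

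Between Pdx1-deficient and alpha arrays none of the 49 genes passed and no member's arrays were separated. Without Pdx1-deficient replicate 1 and alpha replicate 2 again no member passed, while 177 of all genes did, and the arrays of 3 members did not overlap (Rbms3 and Srsf6 lower, Ptbp3 higher), against 4.5% of all genes. With all arrays, over all genes 0.0% passed in limma and 0.637% had arrays that did not overlap, so the comparison gave no calls for any gene at this threshold. Before adjustment 1197 genes (6.0%) had a p under 0.05, 4 of them members, Rbms3, Srsf6, Elavl2 and Khdrbs1, each lower in Pdx1-deficient cells, by 0.52, 0.29, 0.24 and 0.30. The median difference of the members was -0.02, with 23 of 49 above 0 (46.9%), against 0.02 and 57.7% for all genes. It was -0.01, with 24 of 49 above 0, without Pdx1-deficient replicate 1 and alpha replicate 2, and -0.05, with 20 of 49, without alpha replicate 5. The member differences ran from -0.52 for Rbms3 to 0.41 for Ptbp2 (SE 0.23). All 10 arrays of this comparison also enter one of the comparisons with beta cells, so its differences are not independent of those.

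**Figure D3:**
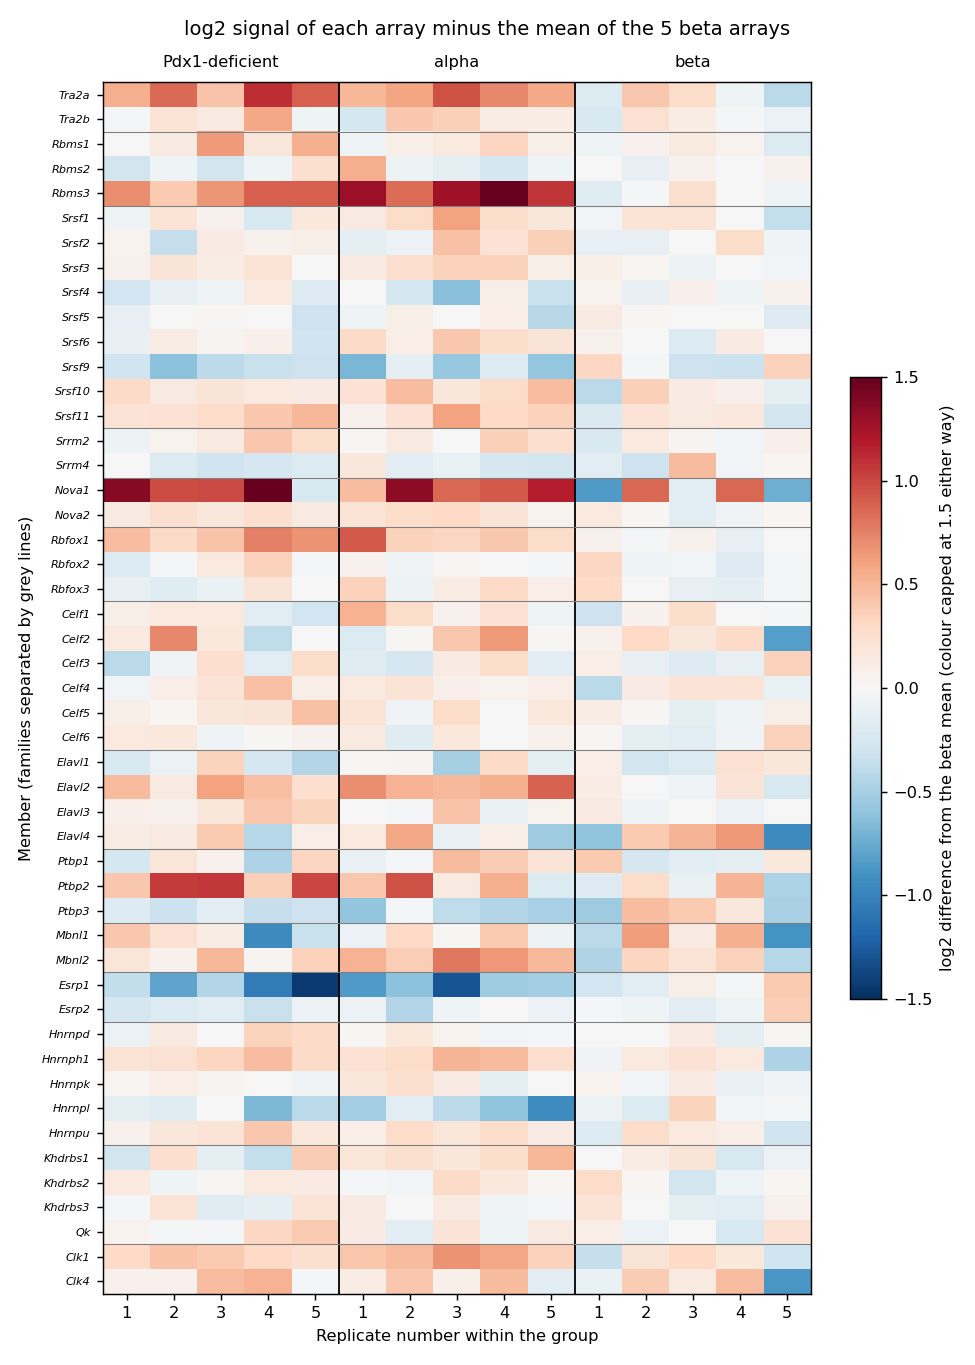
log2 signal of the 49 genes (rows, by family) in the 15 arrays (columns: Pdx1-deficient, alpha and beta replicates 1 to 5), each minus the mean of the 5 beta arrays, on a colour scale capped at 1.5 either way. Tra2a, Rbms3 and Rbfox1 are above the beta mean in all 10 Pdx1-deficient and alpha arrays, and Esrp1 is below it in all 10. This is not particular to them: Elavl2, Clk1, Mbnl2 and Hnrnph1, among others, are also above it in all 10. Srsf9 and Ptbp3 are also below it in all 10.

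The beta arrays themselves were not uniform for these genes. Replicates 1 and 5 were the lowest pair of the 5 beta arrays for 20 of the 49 genes (40.8%), against 13.9% of all 19938 genes, and the highest pair for 12 (24.5%, against 24.1%). The gap between the higher of these arrays and the lowest of the other 3 was widest for Elavl4 (0.99), Ptbp3 (0.66), Mbnl2 (0.65), Nova1 (0.56), Mbnl1 (0.54) and Clk1 (0.46), and it was 0.15 for Tra2a and 0.04 for Rbms3. In Ptbp3 the alpha arrays, 9.51 to 10.08, lay at the level of beta replicates 1 and 5 (9.57 and 9.61) and below the other beta arrays (10.27 to 10.56). Clk4 read 9.62 and 8.85 in beta replicates 1 and 5, against 9.86 to 10.18 in the other 3. Srsf9 ran the other way, with 8.45 and 8.49 in these arrays and 7.82 to 8.11 in the other 3. Several marker lists separated the same arrays: in beta replicates 1 and 5 the alpha-cell genes averaged 7.89 and 7.84 (8.12 to 8.19 in the other 3), the duct genes 6.68 in both (6.31 to 6.42), the leukocyte genes 5.32 and 5.76 (5.14 to 5.22) and the stromal genes 5.94 and 5.88 (5.62 to 5.80). Their part in the lower signals was not tested.

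**Figure D4:**
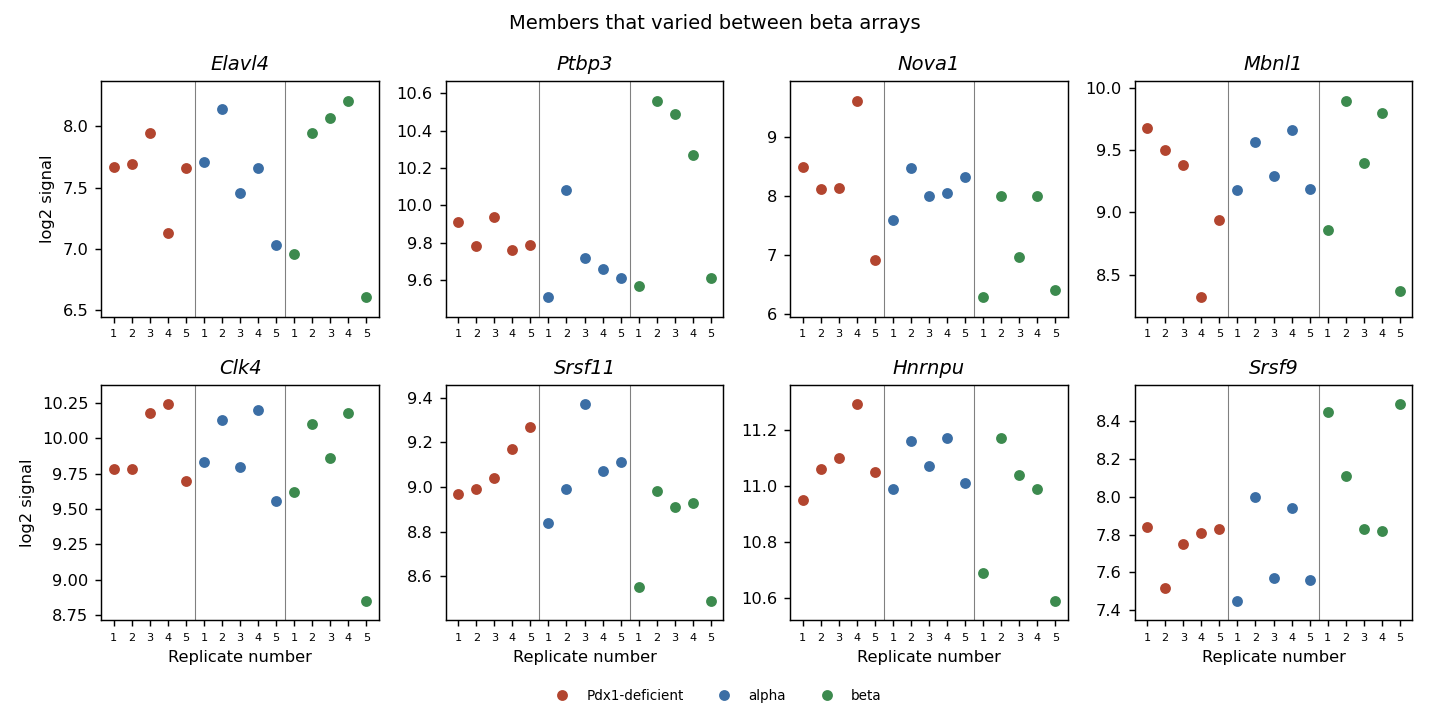
log2 signal (vertical axes, a scale of its own for each gene) of 8 genes in each array, ordered as Pdx1-deficient, alpha and beta replicates 1 to 5 along the horizontal axis. In 7 of the genes beta replicates 1 and 5 are the lowest beta arrays, and in Srsf9 they are the highest.

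Genes of the same pathways that are not on the list were measured for 134 of 147 names in 4 further lists. Between alpha and beta cells 3 of them (2.24%, against 4.04% of all genes) rose and none fell: Snrpc, a U1 snRNP protein that helps recognise the 5′ splice site, by 0.68 (SE 0.17, limma adjusted p = 0.0404), and the mRNA decay factors Zfp36 (0.72, SE 0.19, adjusted p = 0.0488) and Zfp36l1 (0.34, SE 0.09, adjusted p = 0.0476). Snrpc read 7.83, 7.98, 7.84, 8.25 and 8.50 in alpha arrays, against 7.42, 7.28, 7.41, 7.26 and 7.62 in beta arrays, without overlap, while the Zfp36 arrays overlapped. With each array's median subtracted, 5 of the 134 were lower and 0 higher, without a count of all genes beside them. Under that scaling Snrpc, Zfp36 and Zfp36l1 no longer passed (limma adjusted p = 0.0561, 0.0694 and 0.105). Snrpc has 3 clusters on the array, and with their mean its difference was 0.31 (SE 0.13, adjusted p = 0.184), so it depended on which probes were read. Without beta replicates 1 and 5 none of the 134 passed. Between Pdx1-deficient and beta cells 1 fell, the spliceosome component Bud31, by 0.73 (SE 0.15, limma adjusted p = 0.0367), reading 8.20, 8.06, 8.40, 8.34 and 7.66 in Pdx1-deficient arrays, against 8.93, 8.62, 8.79, 8.89 and 9.07 in beta arrays. The calls of Snrpc, Zfp36, Zfp36l1 and Bud31 held in 10 of 25, 8 of 25, 7 of 24 and 13 of 25 alternatives, and that of Bud31 was lost without any 1 of beta replicates 1, 3, 4 and 5 or Pdx1-deficient replicates 2, 4 and 5.

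The 42 measured genes of the core spliceosome had a median difference of -0.21 in Pdx1-deficient and -0.17 in alpha cells from beta cells, with 10 and 14 of the 42 above 0, where the 49 listed regulators had medians of 0.07 and 0.15 and all genes 0.06 and 0.04. The 22 other SR-related proteins and kinases had medians of 0.12 and 0.10, the 18 other hnRNP proteins -0.06 and -0.00, and the 52 other RNA-binding regulators 0.06 in both. In these lists as in the members, the Pdx1-deficient and alpha differences share the beta arrays. The mean signal of the core spliceosome genes was 8.66 and 8.61 in beta replicates 1 and 5 and 8.45 to 8.55 in beta replicates 2 to 4. It was 8.29 to 8.49 in alpha and 8.24 to 8.48 in Pdx1-deficient arrays, so the groups overlapped. In each comparison with beta cells 1 of the 42 passed (2.38%), Bud31 downward in Pdx1-deficient and Snrpc upward in alpha cells. Between Pdx1-deficient and alpha cells none of the 134 genes passed, and their median difference was -0.02.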

How the data were processed

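The deposited table holds 1 signal per transcript cluster and array, 35556 clusters on 15 arrays, ranging from 2.11 to 13.45. The authors made these log2 values with Affymetrix Expression Console, per the submitters' processing notes. The version, background correction, summarization, genome build and base of the logarithm could not be read from the labels or the table, and the base was taken as 2 from the range. Of the clusters, 21789 had a single gene symbol in the platform annotation, 1621 had several and 12146 had none. The single-symbol clusters gave 19938 genes, each read from its cluster with the highest mean.

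Group means were compared with limma 3.58.1 in R 4.3.3 (lmFit and eBayes over all 15 arrays, Benjamini-Hochberg over all genes, threshold 0.05), a fit that was tested on simulated data. Values are mean ± SD over 5 arrays. The precision of a mean rests on these 5 arrays, which may not come from separate animals, and counts of reads do not apply. Members and lists were chosen with earlier results of these data known. Values in every array are given for Tra2a, Rbms3, members past the threshold or with groups that did not overlap, and Srrm4, Nova1, Rbfox1, Celf4, Elavl4, Esrp1 and Ptbp1; other members are given by family, and up to 4 genes past the threshold from each further list. No pairing of arrays by replicate number was seen, although a weak one could go unseen in this check. Deviations from the group means of arrays with the same number correlated with r of -0.172 to 0.224 (median 0.043, 15 pairs). For arrays with different numbers r was -0.267 to 0.328 (median -0.0075, 60 pairs). Alternatives were other scalings, filters, variance models, fewer arrays, the replicate block and all clusters of a gene. Promoter sequences are from the RefSeq annotation of GRCm38.p6.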

Additional observations from a re-analysis of the deposited data

Results flagged for a closer look

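Among the 147 sets of 5 arrays (49 genes in 3 groups), 9 held 1 array far from the other 4 by Dixon's test, whose critical value for 5 arrays is 0.71. Chance alone gives about 1 in 20. Alpha replicate 1 was the highest of its group for Rbms2 (7.0, with the next array at 6.40) and for Rbfox1 (6.0, next 5.49). Pdx1-deficient replicate 2 was the lowest of its group for the SR proteins Srsf2 (9.33, next 9.73) and Srsf9 (7.52, next 7.75). Beta replicate 5 was the lowest of its group for Celf2 (5.84, next 6.74) and the highest for Esrp2 (6.52, next 6.12). Esrp2 was also low in alpha replicate 2 (5.71, next 6.06). Elavl3 was high in alpha replicate 3 (6.37, next 5.99), and Khdrbs1 was high in alpha replicate 5 (8.58, next 8.34), the array with the high acinar signal. The array labelled Pdx1-deficient replicate 1 was in none of these sets the one that stood apart.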

How the results depend on the processing

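For single members, 0 called directions turned in any of the 25 alternatives. Of 1220 values for alpha against beta cells 1178 kept their side of the threshold, 22 lost it and 20 gained it; for Pdx1-deficient against beta cells 1188 kept it, 26 lost it and 6 gained it, and for Pdx1-deficient against alpha cells all 1220 kept it. For members called for no change, the sign turned in some alternative for 23 genes in Pdx1-deficient against beta cells. It turned for 19 in alpha against beta and 27 in Pdx1-deficient against alpha cells. The main differences of these genes were at most 0.23, but those in the alternatives could be larger. Elavl4 went from 0.06 to as low as -0.46 in Pdx1-deficient against beta cells, and from 0.04 to -0.48 in alpha against beta cells. For Pdx1-deficient against beta cells (2 members, 217 genes and 1 of the further lists), the members past the threshold were 0 on quantile normalization, 1 with trend and robust moderation, 0 with the replicate block, 0 with array weights, 1 with only 2 groups in the fit and 0 without beta replicates 1 and 5. All genes were 615 with array medians subtracted (26 up, 589 down), 29 on quantile normalization, 401 after dropping dim clusters, 121 under trend and robust moderation, 8 with the replicate block (6 up, 2 down), 89 with 2 groups, 626 without Pdx1-deficient replicate 1 and alpha replicate 2, and 3 without beta replicates 1 and 5. The further lists gave 4 with array medians subtracted and 0 on quantile normalization, with trend and robust moderation, with the replicate block, with 2 groups and without beta replicates 1 and 5. For alpha against beta cells (4, 806 and 3), members were 7 with array weights and 2 without beta replicates 1 and 5. All genes were 1316 with array weights, 1425 without Pdx1-deficient replicate 1 and alpha replicate 2, and 179 without beta replicates 1 and 5. The further lists gave 5 with array medians subtracted (0 up, 5 down, where the 3 main calls were up), 1 with trend and robust moderation, 8 with array weights, 10 without Pdx1-deficient replicate 1 and alpha replicate 2, and 0 without beta replicates 1 and 5. For Pdx1-deficient against alpha cells all genes were 1 after dropping dim clusters, 1 with array weights, 1 under trend and robust moderation and 177 without Pdx1-deficient replicate 1 and alpha replicate 2, with 0 members in each. Leaving out 1 array at a time gave 0 to 4 members, 0 to 548 genes and 0 to 2 of the further lists for Pdx1-deficient against beta cells, 2 to 8, 328 to 1430 and 0 to 9 for alpha against beta cells, and 0, 0 to 145 and 0 for Pdx1-deficient against alpha cells. The 0 to 4 members came without beta replicates 1, 3, 4 or 5 or Pdx1-deficient replicates 2, 4 or 5 at the low end, and without Pdx1-deficient replicate 1 at the high end, and the 8 without alpha replicate 2. Replicate numbers are shared between groups. In 7 of 30 checks, each array against the 5 arrays of each other group, the array correlated best with its own number. With the number as a block, alpha against beta gave Rbms3 (adjusted p = 0.00373), Elavl2 (0.0254) and Clk1 (0.0267), and Tra2a was lost. The setting without beta replicates 1 and 5 was chosen after seeing the data, and the cause of the lost calls was not tested.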
